A study of Mus musculus with 12 samples.

Results

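The response of the mouse ileum to a sugar drink was compared between a normal-fat and a high-fat diet. The comparison was the fat by sugar interaction, computed for each gene as the HF-Sugar minus HF difference less the NF-Sugar minus NF difference on a log2(RPKM + 1) scale. A value above 0 means that the difference between sugar and water was more positive on the high-fat diet, and a value below 0 that it was more negative there. RPKM is a read count divided by transcript length and by the library's total reads, and each library was scaled by trimmed means of ratios before the logarithm, so levels below are scaled RPKM. Of the 44205 named genes in the table, 17662 had at least 0.5 RPKM in at least 3 of the 12 libraries and were tested.

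All mice were C57BL/6, started the diets at 6 weeks of age and were killed at 16 weeks, after 10 weeks. The 4 groups of 3 mice received normal-fat feed with plain water (NF), normal-fat feed with a 23% (w/v) sugar drink (NF-Sugar), feed with 60% of its energy from fat with plain water (HF), or that high-fat feed with the 23% sugar drink (HF-Sugar). The study's methods name the drink as a sucrose solution and describe normal feed matched to the high-fat feed. Each library came from the whole-tissue RNA of the ileum of 1 mouse, and the labels give no sex. The Y-linked genes Ddx3y (lowest 2.04, highest 3.57) and Eif2s3y were above 1 in all 12 libraries while Xist, which is transcribed from the inactive X chromosome, was at most 0.0439.

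The ileum is the last segment of the small intestine. Its enterocytes reclaim bile acids, absorb what sugar and fat the upper segments leave, make part of their own cholesterol and fatty acids through SREBP transcription factors, and send fructose through a short route that ketohexokinase opens. Between and below these cells lie T cells, macrophages and plasma cells, and an inflamed ileum is known for cytokines such as interleukin 1 beta, for interferon-induced genes and for MHC class II on the epithelium.

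The libraries differed in ways that the groups do not explain. In a principal component analysis of all tested genes, 39.5% of the variance lay along an axis that set apart 4 libraries, 1 in each group (NF replicate 2, NF-Sugar replicate 1, HF replicate 2 and HF-Sugar replicate 2). These 4 had the lowest shares of reads in genes, 73.1 to 73.7%, against at least 76.9% in the other 8, and the part of this in the results was not tested. Recovered depth ran from 15.3 M to 39 M reads per library. The ileal genes Fabp6 (lowest 2452, highest 9371), Slc10a2 (lowest 64, highest 136.2) and Slc51a were high in every library. Markers of neighbouring segments varied from mouse to mouse. Lct, the lactase gene of the upper intestine, measured 5.91, 9.7 and 4.19 in NF, 8.27, 0.0764 and 17.7 in NF-Sugar, 57.4, 0.691 and 22.2 in HF and 5.35, 1.66 and 0.657 in HF-Sugar. The colonic gene Car1 measured 207.6 in NF replicate 3 and between 19.6 and 31.1 in NF replicate 2, NF-Sugar replicate 3 and HF-Sugar replicate 3, against at most 0.115 in the other 8 libraries. In whole tissue, fewer cells of a type and less RNA per cell cannot be told apart.

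No gene had an interaction that passed the threshold. With limma and Benjamini-Hochberg adjustment over all 17662 genes, 0 genes had an adjusted p under 0.05 (0% of those tested), and the smallest adjusted p was 0.512, for Il1b. At an unadjusted p under 0.05 there were 426 genes (2.41%), of which 252 lay above 0 (1.43%) and 174 below (0.985%). limma-voom on reads recovered from the RPKM values also called 0 genes, with 377 at an unadjusted p under 0.05. The median standard error of the interaction was 0.257 on the log2 scale, against 0.182 for the difference on a single diet, so each gene's interaction was measured with more error than either response. Of the 243 genes with an interaction beyond 1 in either direction, 91 were immunoglobulin segments, whose reads are shared among near-identical copies and whose use differs between mice.

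The response to sugar on each diet was also small beside the spread between mice. On the normal-fat diet 0 genes were called with limma (0%), and 313 had an unadjusted p under 0.05 (1.77%), 105 of them above 0 (0.594%) and 208 below (1.18%). On the high-fat diet 1 gene was called (0.00566%), and 743 had an unadjusted p under 0.05 (4.21%), 338 above 0 (1.91%) and 405 below (2.29%). The gene called was Il1b, which rose by 1.31 ± 0.14 on the log2 scale (limma estimate ± SE, adjusted p = 0.033). That call was lost, with 0 genes called, at a pseudocount of 0.1, without a filter, with the replicate block, under limma-voom, without the 4 libraries that stood apart or with a covariate for them, and without any 1 of 9 libraries (each NF and HF-Sugar library, NF-Sugar replicate 2 and HF replicates 2 and 3). At a mean RPKM of at least 5 Il1b was not tested. The 2 responses share no library, and across the 17662 genes their Pearson correlation was 0.19 and Spearman's rho 0.144, with 54.5% of genes on the same side of 0 on both diets. Genes are not independent replicates, and all genes of a library share its depth and scaling. Without the 4 libraries that stood apart, the Pearson correlation was 0.383.

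**Figure D1:**
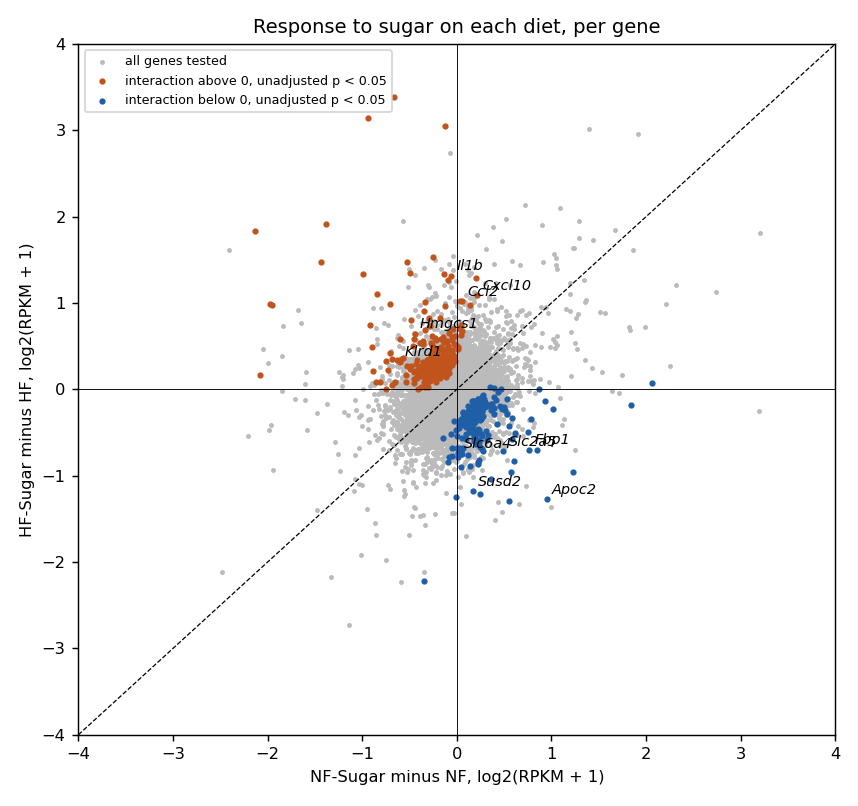
Each point is 1 of the 17662 genes tested, with its NF-Sugar minus NF difference on the horizontal axis and its HF-Sugar minus HF difference on the vertical axis (both log2(RPKM + 1), group means of 3). Orange and blue points are the 252 and 174 genes with an interaction above and below 0 at an unadjusted p under 0.05, and the dashed line marks equal responses. Most genes lie within 1 of the origin on both axes, and Il1b, Ccl2 and Cxcl10 lie near 0 horizontally and above 1 vertically.

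The order of the 3 sugar and 3 water libraries was read on each diet. On normal fat, all sugar libraries lay above all water libraries for 453 genes (2.56%) and below for 578 (3.27%). On high fat the counts were 914 (5.17%) and 865 (4.9%). The groups were apart in the same direction on both diets for 51 genes (0.289%). They were apart in opposite directions for 40 genes, with 25 below water on normal fat and above it on high fat (0.142%), and 15 the other way (0.0849%). A further reading asked which single group stood clear of the other 9 libraries. NF lay above the rest for 75 genes (0.425%) and below for 71 (0.402%), NF-Sugar for 20 (0.113%) and 14 (0.0793%), HF for 64 (0.362%) and 52 (0.294%), and HF-Sugar for 71 (0.402%) and 58 (0.328%). Among these 17662 genes NF-Sugar thus stood clear least often of the 4 groups. Some genes take such orders with no response at all, and the counts were not tested against that share.

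Of the 12 named genes with the highest moderated t for the interaction, 8 had all HF-Sugar libraries above the other 9 (Il1b, Ccl2, Cd40, Ifng, Il7, Csf2rb, Ifit3b and Tas1r3), against 0.402% of all genes tested. The same contrast chose these 12, so the count is in part set by that choice and gives no support. Of the 8, Ccl2, Ifng and Tas1r3 passed the filter on low values through HF-Sugar alone, so that their standing clear is also in part set by the filter. Il1b encodes interleukin 1 beta, the cytokine that inflammasomes release, and lies at chr2:129364570-129371139 on the minus strand of mm10. Its level was 0.539, 0.821 and 0.598 in NF, 0.377, 0.616 and 0.766 in NF-Sugar, 0.262, 0.599 and 0.758 in HF and 2.93, 2.75 and 2.71 in HF-Sugar. The 3 HF-Sugar libraries lay above the other 9, which overlapped. The interaction was 1.38 ± 0.20 (limma estimate ± SE, unadjusted p = 2.9e-05). Ccl2, the chemokine that draws monocytes, measured 0.0753, 0.109 and 0.313 in NF, 0, 0.258 and 0.391 in NF-Sugar, 0.183, 0.441 and 0.254 in HF and 1.98, 1.95 and 1.03 in HF-Sugar. Again only the HF-Sugar libraries stood clear, with an interaction of 0.97 ± 0.25 (unadjusted p = 0.0027). Cd40, a receptor through which T cells activate antigen-presenting cells, was 0.336 to 0.72 in the 9 other libraries and 1.18, 1.71 and 1.72 in HF-Sugar (interaction 0.74 ± 0.17).

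The others of these genes were also measured at low levels. Ifng, the interferon of T cells and natural killer cells, reached at most 0.186 in the 9 other libraries and 0.785, 0.536 and 0.669 in HF-Sugar. Il7, a survival factor for lymphocytes, measured 0.51, 0.655 and 0.352 in NF, 0.405, 0.579 and 0.372 in NF-Sugar, 0.22, 0.266 and 0.34 in HF and 1, 1 and 0.693 in HF-Sugar. Its HF libraries lay below and its HF-Sugar libraries above all others, with an interaction of 0.62 ± 0.16. Csf2rb, the shared receptor chain for interleukin 3, interleukin 5 and GM-CSF, was 0.914 to 1.38 in the other groups and 2.43, 1.8 and 2.15 in HF-Sugar (0.59 ± 0.16). Ifit3b, an interferon-induced gene, was 0.582 to 1.34 in the others and 2.03, 1.8 and 1.71 in HF-Sugar (0.73 ± 0.19). Klrd1, a receptor chain of natural killer and intraepithelial T cells, had another pattern, at 0.714, 1.8 and 1.31 in NF, 0.561, 0.305 and 0.545 in NF-Sugar, 0.357, 0.321 and 0.527 in HF and 0.458, 0.868 and 0.964 in HF-Sugar. NF lay above NF-Sugar in all mice, and HF overlapped HF-Sugar.

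**Figure D2:**
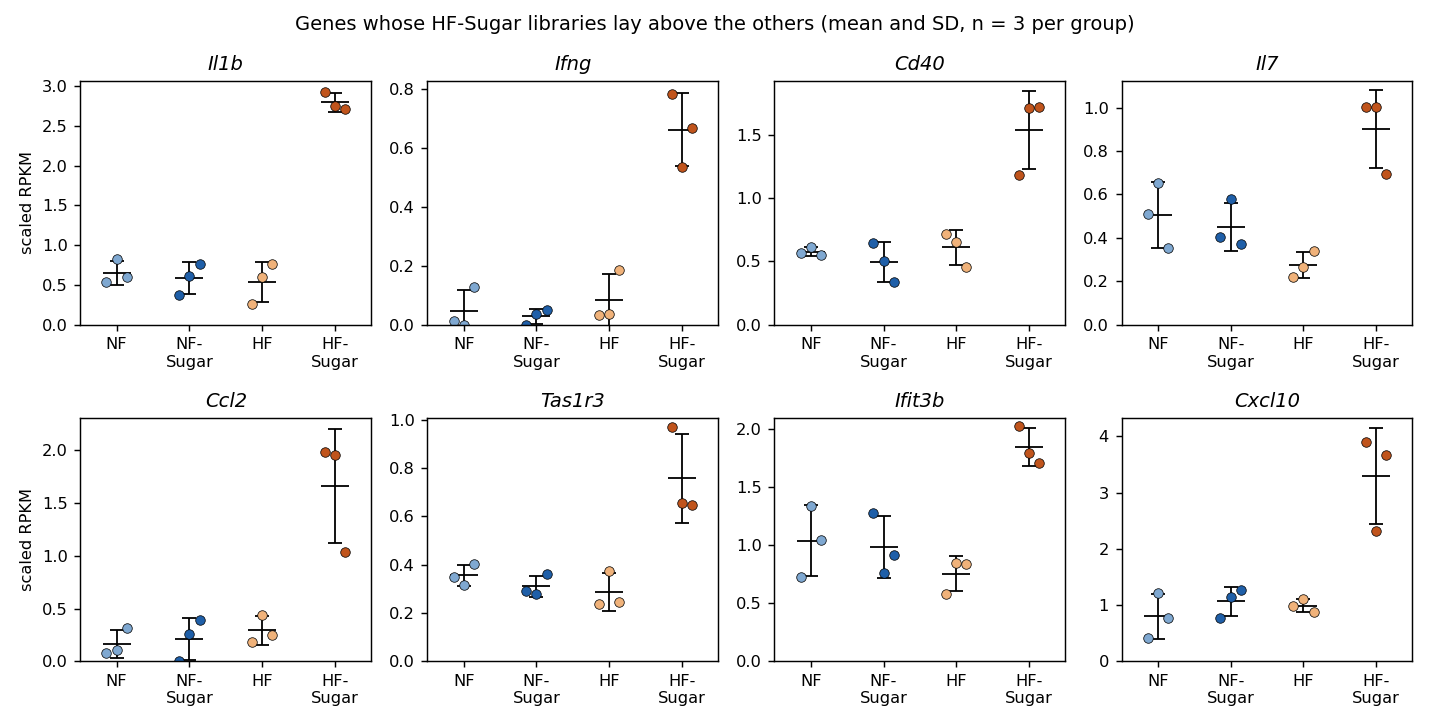
Scaled RPKM (vertical axis, from 0) of 8 genes in the 12 libraries, by group. Points are libraries, and bars are the mean and SD of 3. In each panel the 3 HF-Sugar points lie above the other 9 points, for example at 2.93, 2.75 and 2.71 for Il1b against at most 0.821 elsewhere.

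Tas1r3, which encodes the subunit shared by sweet and umami taste receptors, lies at chr4:155859268-155863362 and overlaps Dvl1 on the other strand. It measured 0.349, 0.316 and 0.404 in NF, 0.293, 0.278 and 0.361 in NF-Sugar, 0.236, 0.376 and 0.247 in HF and 0.971, 0.655 and 0.649 in HF-Sugar. The HF-Sugar libraries lay above the other 9, and the interaction was 0.50 ± 0.14 (unadjusted p = 0.004). Its partner subunits were not tested, with at most 0.104 for Tas1r1 and 0.0669 for Tas1r2 in any library. Trpm5, the cation channel downstream of taste receptors, had an interaction of -0.10 ± 0.18, and the other tested genes of the tuft cell list lay between -0.05 and 0.23 except Alox5ap (0.54 ± 0.25). Among other genes that the study's text names, Tnf (0.68 ± 0.25, unadjusted p = 0.021) and Cxcl10 (0.88 ± 0.27, unadjusted p = 0.0077) were higher in all HF-Sugar than in all HF libraries. Il18 (-0.86 ± 0.58), Cxcl9 (0.71 ± 0.71), Gcg (0.24 ± 0.31), Lgr5 (-0.11 ± 0.20), Pparg (0.31 ± 0.18), Lpin1 (0.29 ± 0.14) and Mtor (-0.11 ± 0.13) had unadjusted p-values from 0.058 upward, and Cxcl3 was too low to test.

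Exact two-sided permutation of the drink labels within each diet, over 400 arrangements with a smallest possible p of 0.005, gave p = 0.035 for Il1b, 0.015 for Tas1r3, 0.01 for Tnf and 0.11 for Cxcl10. These p-values are unadjusted, and the study named these genes from libraries that include the NF and HF-Sugar groups. Tas1r3 also passed the filter through HF-Sugar alone, so its p gives no support. Each of the genes has HF-Sugar values among the irregular ones described next.

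Several of these values are irregular in the table. An RPKM value times length and depth should give a whole number of reads, and it did so for 85.5 to 86.2% of the low values of a library. For Il1b the 9 other libraries held whole counts from 12 to 38 reads, while HF-Sugar held 123.92, 141.46 and 92.05. Cd40 came to 89, 157.29 and 104.46 reads in HF-Sugar and to whole counts elsewhere. Tas1r3 came to 75.85, 62.3 and 40.77 reads, Tnf to 71.18, 33.47 and 24.34, and Cxcl10 to 194.41, 140.68 and 147. Ccr7 came to 213.19, 160.59 and 111.21 reads in HF-Sugar, Ifng to 22.54, 18.73 and 15.43, and Il7 to 126.28, 153.08 and 70. Outside HF-Sugar, Ifng also held fractions in NF (0.62 and 4.66) and Il7 in NF-Sugar (33.16). Ccl2 (50, 60 and 21 reads), Ifit3b (90, 97 and 61) and Klrd1 (13, 30 and 22) were whole. Over all genes that were whole in the other 3 groups, 1.22% had fractions in HF-Sugar alone, against 1.17% for HF, 1.61% for NF-Sugar and 2.25% for NF. In addition, 17 values in the table carry 7 significant digits in place of 6. Of these, 12 are in HF-Sugar, in genes that include Cd40, Gcg, Ifng, Il1b, Il23r, Il7r, Nlrp3, Tlr8 and Tnf, and 5 are defensins in NF. Il1b, the gene called on high fat, is among the genes with irregular values, and the part of these values in the results was not tested.

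Of the 12 named genes with the lowest moderated t, 5 had all HF libraries above the other 9 (Slc6a4, Susd2, Spns3, Rpusd1 and Snhg7), against 0.362% of all genes tested. Here too the contrast chose the genes, so the count gives no support. Snhg7, a noncoding host gene of small nucleolar RNAs, passed the filter through HF alone, where it measured 2.99, 0.985 and 0.693 against at most 0.00607 in the other 9 libraries. Slc6a4, the serotonin transporter of enterocytes, lies at chr11:76998603-77032340. It measured 10.8, 9.23 and 8.9 in NF, 10.3, 8.46 and 10.6 in NF-Sugar, 13.6, 12.9 and 13.6 in HF and 8.04, 6.62 and 8.2 in HF-Sugar. HF lay above and HF-Sugar below all other libraries, and the interaction was -0.76 ± 0.18 (unadjusted p = 0.0018). Susd2, a membrane protein of enterocytes, was 23.6 to 38.8 on normal fat, 84.7, 57.3 and 40 in HF and 27.3, 26.9 and 21.3 in HF-Sugar (-1.35 ± 0.37). Slc6a20b, an amino acid transporter, was 4.68, 4.71 and 3.23 in HF and 2.71, 2.06 and 2.4 in HF-Sugar, with 1.58 to 3.39 on normal fat, so that HF overlapped the normal-fat libraries (-0.84 ± 0.25). The interaction was -0.62 ± 0.18 for Spns3 and -0.55 ± 0.15 for Rpusd1.

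Others of the 12 lowest took other shapes. Isoc2b was 6.11 to 8.02 in the 9 other libraries and 4.93, 4.78 and 4.62 in HF-Sugar (-0.54 ± 0.15). Zfp335, a transcription factor needed for T cell maturation, was 1.56, 1.44 and 1.82 in NF and at least 2.01 in every other library, so the difference lay on the normal-fat side (-0.65 ± 0.18). Ppm1j, a protein phosphatase (-1.40 ± 0.39), and Pomk, a kinase for the sugar chains of dystroglycan (-0.68 ± 0.19), were lower in all HF-Sugar than in all HF libraries. Fbp1, the remaining member beside Tmem206, belongs with the sugar genes described next.

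Genes of sugar digestion, transport and fructolysis tended to lie below 0. Of 28 listed genes 27 were tested, 23 had an interaction below 0 and 4 above, and the median was -0.42 against 0.01 over all genes tested, of which 51.8% lay above 0. None passed the adjusted threshold, and 4 had an unadjusted p under 0.05 below 0 and 1 above (0.985% and 1.43% of all genes tested). Fbp1, the gluconeogenic enzyme fructose bisphosphatase, measured 17.9, 9.15 and 13.8 in NF, 24.2, 20 and 25.4 in NF-Sugar, 36.1, 24.5 and 19.4 in HF and 16, 20.8 and 11.2 in HF-Sugar. It was higher with sugar in all mice on normal fat, and the groups overlapped on high fat (-1.46 ± 0.41, unadjusted p = 0.0051). Slc2a5, the fructose transporter GLUT5, measured 16.6, 21.3 and 13.7 in NF, 31.8, 22.8 and 19.4 in NF-Sugar, 33.3, 28.4 and 21.8 in HF and 23, 17.2 and 10.8 in HF-Sugar. The group means ran up with sugar on normal fat and down on high fat, with overlap on both (-1.21 ± 0.41). Tkfc, the triokinase of fructolysis (-0.97 ± 0.36), and Pklr, pyruvate kinase (-0.70 ± 0.24), were higher in all NF-Sugar than in all NF libraries and overlapped on high fat. Khk (-0.61 ± 0.46), the sucrase gene Sis (-0.57 ± 0.32) and Slc2a2 (-1.04 ± 0.96) had wider errors. On the other side of 0 were Slc2a1, the glucose carrier of dividing cells (0.50 ± 0.20), and Hk2, hexokinase 2 (1.04 ± 0.57).

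The level of this list, as the mean log2 level of its members less the average over 12 libraries, was 0.547, 0.049 and 0.162 in HF and 0.006, -0.148 and -0.49 in HF-Sugar, against 0.113, -0.098 and -0.121 in NF and 0.167, -0.381 and 0.194 in NF-Sugar. Of the upper-intestine markers, Lct is itself a member of this list and was highest in HF replicates 1 and 3. Gata4, the transcription factor of the upper intestine, is not on the list. It measured 4.98, 0.631 and 4.38 in HF, 2.4, 0.788 and 0.417 in HF-Sugar and 0.351 in NF-Sugar replicate 2, which had the lowest list level on normal fat. Gata4 was 2.31, 3.41 and 1.98 in NF, and 2.72 and 3.3 in NF-Sugar replicates 1 and 3. The part of these markers in the result was not tested. Over the alternatives the list median stayed between -0.64, without NF-Sugar replicate 2, and -0.33.

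Fat handling was mixed. Of 27 tested genes of fat absorption and chylomicron assembly, 19 lay below 0 and 8 above (median -0.16), with Apoc2, an apolipoprotein that activates lipoprotein lipase, at -2.23 ± 0.85 and the fatty acid carrier Slc27a2 at -0.81 ± 0.31. Apoc2 measured 20.3, 17 and 23.2 in NF, 37.1, 37 and 45.4 in NF-Sugar, 103, 15.1 and 59.6 in HF and 36.8, 14.8 and 11.1 in HF-Sugar, and its 2 high HF libraries are those with high Lct. The list median ran from -0.39 without NF-Sugar replicate 2 to 0.01 without HF replicate 1. Of 31 PPAR targets and genes of fatty acid oxidation, 22 lay below 0 (median -0.22, and -0.08 without HF-Sugar replicate 3). Among them 1 had an unadjusted p under 0.05 (2.41% of all genes tested), Ucp2, a mitochondrial carrier (-0.54 ± 0.22). On high fat 30 of the 31 had a sugar response below 0, against 17 on normal fat.

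Cholesterol genes lay on the other side of 0. Of 27 tested genes of cholesterol synthesis and uptake, 25 had an interaction above 0, with a median of 0.44. An unadjusted p under 0.05 was found for 4, all above 0 (1.43% of all genes tested). The sugar response had a median of -0.08 on normal fat and 0.42 on high fat. Hmgcs1, an early synthase of the pathway, measured 84.1, 63.5 and 66.8 in NF, 33.3, 67.5 and 61.5 in NF-Sugar, 27.5, 45.9 and 43 in HF and 55.2, 71.9 and 53.9 in HF-Sugar, with all HF-Sugar above all HF libraries and overlap on normal fat (1.09 ± 0.40, unadjusted p = 0.021). Hsd17b7 (0.70 ± 0.25), Msmo1 (1.12 ± 0.47), Idi1 (0.75 ± 0.34) and Sqle (0.65 ± 0.39), all later enzymes, were also higher in all HF-Sugar than in all HF libraries. The list level was lowest in HF, at -0.505, -0.119 and -0.128, with 0.328, 0.098 and -0.08 in NF, -0.162, 0.139 and 0.134 in NF-Sugar and 0.036, 0.339 and -0.082 in HF-Sugar. The median was 0.22 without the 4 libraries that stood apart, 0.26 without NF replicate 1, 0.27 without HF-Sugar replicate 2 and 0.29 without NF-Sugar replicate 1.

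Fatty acid synthesis genes, which share SREBP factors with these, had 13 of 16 tested members above 0, a median of 0.30 and 4 at an unadjusted p under 0.05 (2.41% of all genes tested). Elovl6, the elongase of palmitate, measured 7.52, 7.41 and 7.13 in NF, 5.73, 6.82 and 7.19 in NF-Sugar, 4.3, 4.23 and 6.93 in HF and 7.88, 8.61 and 8.03 in HF-Sugar, with all HF-Sugar libraries above the other 9 (0.75 ± 0.23, unadjusted p = 0.0074). Insig1, which holds SREBP in the endoplasmic reticulum and is itself an SREBP target, had 1.04 ± 0.41, Elovl7 0.39 ± 0.16 and Acsl3 0.52 ± 0.22. Scd2 (1.20 ± 0.59) and Fasn (0.44 ± 0.30) had unadjusted p-values of 0.069 and 0.17. Acly had 0.04 ± 0.19 and Acaca 0.16 ± 0.17. Srebf1, which encodes an SREBP factor (-0.27 ± 0.19), Fads2 (-0.46 ± 0.36) and Me1 (-0.14 ± 0.42) lay below 0. The median was 0.09 without the 4 libraries that stood apart and 0.15 without HF-Sugar replicate 2.

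**Figure D3:**
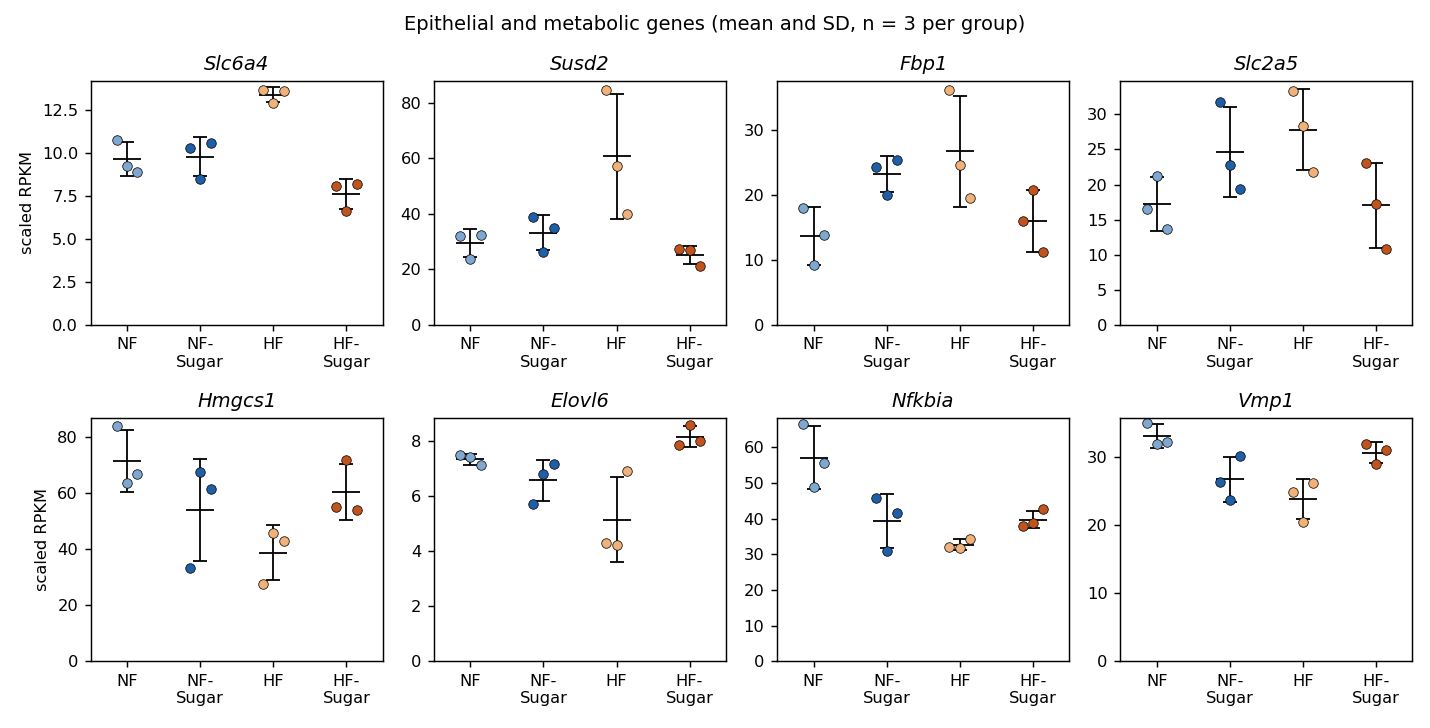
Scaled RPKM (vertical axis, from 0) of 8 epithelial genes in the 12 libraries, by group, with the mean and SD of 3. Slc6a4 and Susd2 are highest in HF, Hmgcs1 and Elovl6 have their lowest group mean in HF, and Nfkbia and Vmp1 are lower with sugar on normal fat and higher with sugar on high fat.

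Windows upstream of some list members are shown because genes of such lists share regulators. RefSeq windows of 250 bases before the start (GRCm38.p6) were searched on both strands for TCACCCCAC, a core of the sterol response element, and for TTCNNTTTC, a core of the interferon-stimulated response element. Of 19 cholesterol genes with a window, 1 held the sterol motif (5.26%, against 0.597% of 9878 tested genes with a window and 0.496% of 32851 promoters), Hmgcs1. Of 27 interferon-response genes with a window, 17 held the interferon motif (63%, against 7.46% of those tested genes and 7.13% of promoters). The matches describe the letters alone. The windows printed were chosen only among members that hold the motif, by the smallest interaction p. The windows of Hmgcs1 (chr13:119690101-119690350, plus strand), Ifit3b (chr19:34607707-34607956, plus strand), Rsad2 (chr12:26456453-26456702, minus strand) and Irgm2 (chr11:58214727-58214976, plus strand) read as follows, 5′ to 3′ along the gene's strand, with the motif in capitals.
Hmgcs1: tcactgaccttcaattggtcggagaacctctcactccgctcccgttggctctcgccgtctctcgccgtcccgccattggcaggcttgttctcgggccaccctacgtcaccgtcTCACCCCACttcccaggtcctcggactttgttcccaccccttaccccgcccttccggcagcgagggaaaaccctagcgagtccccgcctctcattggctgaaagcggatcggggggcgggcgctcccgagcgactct
Ifit3b: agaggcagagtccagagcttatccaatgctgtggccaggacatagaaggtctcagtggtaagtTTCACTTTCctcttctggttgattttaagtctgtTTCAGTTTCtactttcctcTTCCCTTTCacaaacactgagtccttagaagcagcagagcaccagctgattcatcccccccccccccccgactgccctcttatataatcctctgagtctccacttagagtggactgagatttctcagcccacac
Rsad2: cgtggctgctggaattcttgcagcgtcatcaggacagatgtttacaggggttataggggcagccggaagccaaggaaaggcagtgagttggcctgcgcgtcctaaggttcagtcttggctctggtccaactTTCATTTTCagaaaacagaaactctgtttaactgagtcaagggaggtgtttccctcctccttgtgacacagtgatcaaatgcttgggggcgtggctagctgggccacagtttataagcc
Irgm2: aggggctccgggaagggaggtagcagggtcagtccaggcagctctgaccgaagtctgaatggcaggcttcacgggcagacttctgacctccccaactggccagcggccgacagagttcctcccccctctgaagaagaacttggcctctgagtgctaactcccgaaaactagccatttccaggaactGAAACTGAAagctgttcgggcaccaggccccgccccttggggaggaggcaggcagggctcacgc
Hmgcs1 holds 1 match 137 bases before the start, Ifit3b 3 matches from 187 bases before it, Rsad2 1 match at 119 bases and Irgm2 1 match on the opposite strand at 64 bases.

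Interferon-response genes were above 0 in 33 of 36 tested members, with a median interaction of 0.45. The sugar response had a median of 0.08 on normal fat and 0.45 on high fat, where 33 of 36 were above 0. None passed the adjusted threshold, and 3 had an unadjusted p under 0.05 (2.41% of all genes tested). They were Ifit3b, Usp18, which removes ISG15 from proteins (0.66 ± 0.30), and Rsad2, the antiviral enzyme viperin (0.33 ± 0.15). The guanosine triphosphatase Irgm2 (1.27 ± 0.60), Iigp1 of the same family (0.92 ± 0.50) and Ifit1 (0.88 ± 0.63) were higher in all HF-Sugar than in all HF libraries and overlapped on normal fat. Over the alternatives the list median ran from 0.27, without NF replicate 2 or NF-Sugar replicate 2, to 0.66.

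Antigen presentation genes had the highest list medians. Of 10 tested MHC class II genes 9 lay above 0, with a median of 1.21, and 0 had an unadjusted p under 0.05 (2.41% of all genes tested). Cd74, the invariant chain, measured 273.8, 1809 and 1290 in NF, 344.5, 715.2 and 1399 in NF-Sugar, 287.9, 717.6 and 817.5 in HF and 1246, 1136 and 1395 in HF-Sugar. The HF-Sugar libraries were close to each other and above HF, while the other groups spread several-fold among their 3 mice (1.48 ± 1.0, unadjusted p = 0.17). H2-Aa (1.75 ± 1.01), H2-Ab1 (1.30 ± 0.91) and H2-DMa (1.27 ± 0.80) had the same order on high fat, and Ciita, the master activator of these genes, overlapped (0.82 ± 0.63). The median was 1.89 without NF replicate 1, 0.73 without NF replicate 2, 0.77 without NF-Sugar replicate 1 and 0.62 without the 4 libraries that stood apart. Of 13 MHC class I genes 12 lay above 0 (median 0.48, and 0.31 without NF replicate 2), with Nlrc5, their activator, at 0.70 ± 0.30 and H2-D1 at 0.57 ± 0.30.

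The lymphocyte list moved beside these genes. Of 23 tested T cell and intraepithelial lymphocyte genes 22 lay above 0. The median was 0.38, with 0.57 without NF replicate 1 and 0.27 without the 4 libraries that stood apart. Of the 23 genes 2 had an unadjusted p under 0.05 (2.41% of all genes tested), Klrd1 and Cd244. Unlike the interferon list, the median sugar response was below 0 on normal fat (-0.20, with 5 of 23 above 0) and above 0 on high fat (0.21, with 21 of 23). Gzma, a granzyme, measured 5.27, 21.9 and 20.8 in NF, 3.89, 6.91 and 12.7 in NF-Sugar, 6.67, 3.64 and 15.2 in HF and 9.35, 12.2 and 17.3 in HF-Sugar, with overlap on both diets (1.56 ± 0.83). The T cell receptor chains Cd3d (0.72 ± 0.37), Cd3e (0.43 ± 0.22) and Cd3g (0.62 ± 0.33) overlapped too. The summed level of all 26 listed genes ran from 28.1 to 79.4 in NF, 31.2 to 49.7 in NF-Sugar, 28.4 to 56.1 in HF and 46.6 to 67.4 in HF-Sugar. Its part in the interferon and antigen presentation values was not tested.

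Markers of other cells took both signs. Macrophage and dendritic cell genes were above 0 in 13 of 16 (median 0.26, and from 0.16 without HF-Sugar replicate 3 to 0.41 without HF-Sugar replicate 2), with Clec7a, a receptor for fungal glucan, at 0.58 ± 0.25, and their summed level ran from 122.1 to 266 in HF and 155.5 to 276.8 in HF-Sugar. B cell and plasma cell genes were split 12 above and 11 below (median 0.07). Of the 8 neutrophil genes only Mpo passed the filter, at -0.46 ± 0.24, and their sum was at most 1.8 in any library. Medians were -0.07 for smooth muscle (15 tested), -0.12 for fibroblasts and matrix (18), 0.12 for adipocytes (12), 0.13 for endothelium (12), 0.02 for enteric neurons and glia (10), 0.27 for red blood cells (4, and -0.06 without NF-Sugar replicate 1) and -0.38 for exocrine pancreas, whose 3 tested genes all lay below 0. None of these genes passed the adjusted threshold, and no list had all its genes at 0 in every library. Fbln1, a matrix protein, was the sole stromal gene with an unadjusted p under 0.05 (-1.09 ± 0.45).

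The cytokine and chemokine list held 22 tested genes of 35, with 16 above 0 and a median of 0.27. Il1b, Cxcl10 and Tnf had an unadjusted p under 0.05, and so had Ifng and Ccl2, which passed the filter through HF-Sugar alone and give no support to a count (2.41% of all genes had such a p). The median was 0.13 without genes with irregular values and 0.17 without NF-Sugar replicate 3. The 13 not tested include Il6, Il17a, Il22 and Cxcl1. Ccl20, a chemokine of the epithelium over lymphoid follicles, had 1.10 ± 0.52, and Ccl5 0.97 ± 0.82, which was -0.10 without the 4 libraries that stood apart. Chemokine receptors were above 0 in 8 of 9 (median 0.32, and 0.17 without HF-Sugar replicate 1), with Ccr7, the homing receptor for lymph nodes, at 0.47 ± 0.24 and Ccr1 at 0.32 ± 0.21. Ccr7 is among the genes with fractional reads in HF-Sugar.

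In the epithelial response to microbes, 13 of 14 genes had a sugar response above 0 on normal fat and 13 on high fat, with medians of 0.53 and 1.10. Reg3g, a lectin that kills bacteria, measured 1797, 2411 and 943.6 in NF, 2058, 7250 and 4052 in NF-Sugar, 262, 792.5 and 898.6 in HF and 4212, 1681 and 1010 in HF-Sugar. The HF libraries were below the other 9, and the interaction was 0.46 ± 0.94, which turned to between -0.11 and -0.0088 without HF replicate 1, HF-Sugar replicate 1 or NF-Sugar replicate 1. Nos2, inducible nitric oxide synthase, had 1.12 ± 0.59 and Duox2, an oxidase of the luminal membrane, 0.78 ± 0.67, which was 0.25 without HF replicate 1. The median interaction was 0.43 and ran from 0.03, without NF-Sugar replicate 1, to 0.95.

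**Figure D4:**
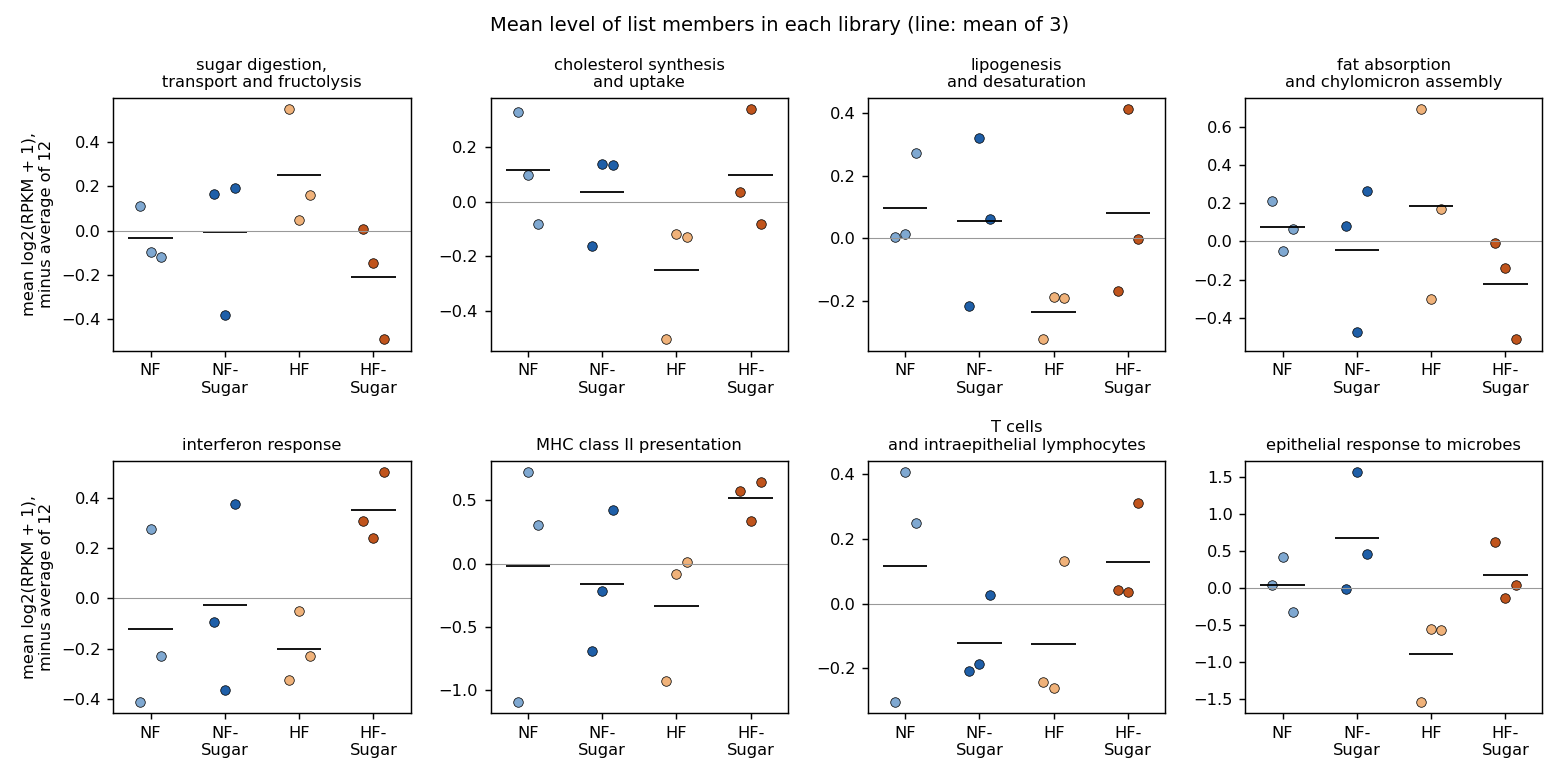
Level of 8 gene lists in each library, as the mean log2(RPKM + 1) of the tested members less its average over the 12 libraries (vertical axis), by group, with a line at the mean of 3. Sugar genes are highest and cholesterol genes lowest in HF replicate 1 (0.547 and -0.505), and the MHC class II level spans from -1.092 to 0.722 within NF.

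Among other epithelial functions, Paneth cell products had 16 of 19 below 0 (median -0.30, and from -1.09 to 0.24 over the alternatives) and gut hormones 14 of 17 (median -0.29, and -0.11 without NF replicate 3 or HF-Sugar replicate 2), with ghrelin, Ghrl, at -0.51 ± 0.18 (unadjusted p = 0.019) and Insm1, a factor of enteroendocrine cells, at -0.31 ± 0.15. Bile acid genes had a median of -0.03, with Slc51b, the basolateral exporter subunit, at 0.93 ± 0.39 and the bile acid receptor Nr1h4 at 0.73 ± 0.33. Slc51b measured 356, 352 and 307 in NF, 303, 142 and 273 in NF-Sugar, 185, 160 and 196 in HF and 191, 287 and 225 in HF-Sugar, so NF lay above the other 9 libraries. Xenobiotic genes responded to sugar with a median of -0.38 on normal fat and -0.39 on high fat, and the median interaction was -0.03. Medians were -0.07 for peptidases and amino acid transporters, -0.05 for crypt stem cells, 0.08 for the cell cycle, -0.09 for tight junctions, 0.08 for ion transport, 0.19 for immediate early genes (-0.07 without HF-Sugar replicate 1), 0.08 for heat shock and the unfolded protein response, 0.12 for mitochondrially encoded genes, 0.00 for the mTOR pathway, -0.05 for goblet cell genes, 0.08 for taste and tuft cell genes and -0.08 for nutrient receptors.

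The circadian clock list had a median interaction of -0.07 over 17 tested genes, with members on both sides of 0. Nr1d1, the clock repressor REV-ERB alpha, measured 42, 42.2 and 21.5 in NF, 27, 22.9 and 22.8 in NF-Sugar, 44, 40.2 and 41.2 in HF and 19.4, 23 and 22 in HF-Sugar. On normal fat, NF replicates 1 and 2 lay above all NF-Sugar libraries, and NF replicate 3 lay below them. Over the alternatives the Nr1d1 interaction ran from -0.63, without NF replicate 2, to -0.16, without NF replicate 3. All HF-Sugar libraries lay below all HF libraries, with a difference of -0.93 ± 0.23 (unadjusted p = 0.0021), and NF and NF-Sugar overlapped (interaction -0.47 ± 0.32). On high fat the sugar response was -1.68 for Dbp and -0.49 for Cry2, and 0.52 for Arntl and 0.59 for Cry1, with unadjusted p-values from 0.02 to 0.04. On normal fat these genes, in the same order, had -0.86, -0.21, 0.07 and -0.01. Their interactions were -0.82 ± 0.90, -0.28 ± 0.27, 0.45 ± 0.32 and 0.60 ± 0.30, with unadjusted limma p-values from 0.075 upward. Dbp, Cry2, Arntl and Cry1 are given for an unadjusted p under 0.05 on high fat (4.21% of all genes tested). Their contrast with normal fat is in part set by that choice. Ciart had such a p on both diets, with -0.42 on normal fat, -0.35 on high fat and an interaction of 0.07 ± 0.21. None of these passed the adjusted threshold.

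**Figure D5:**
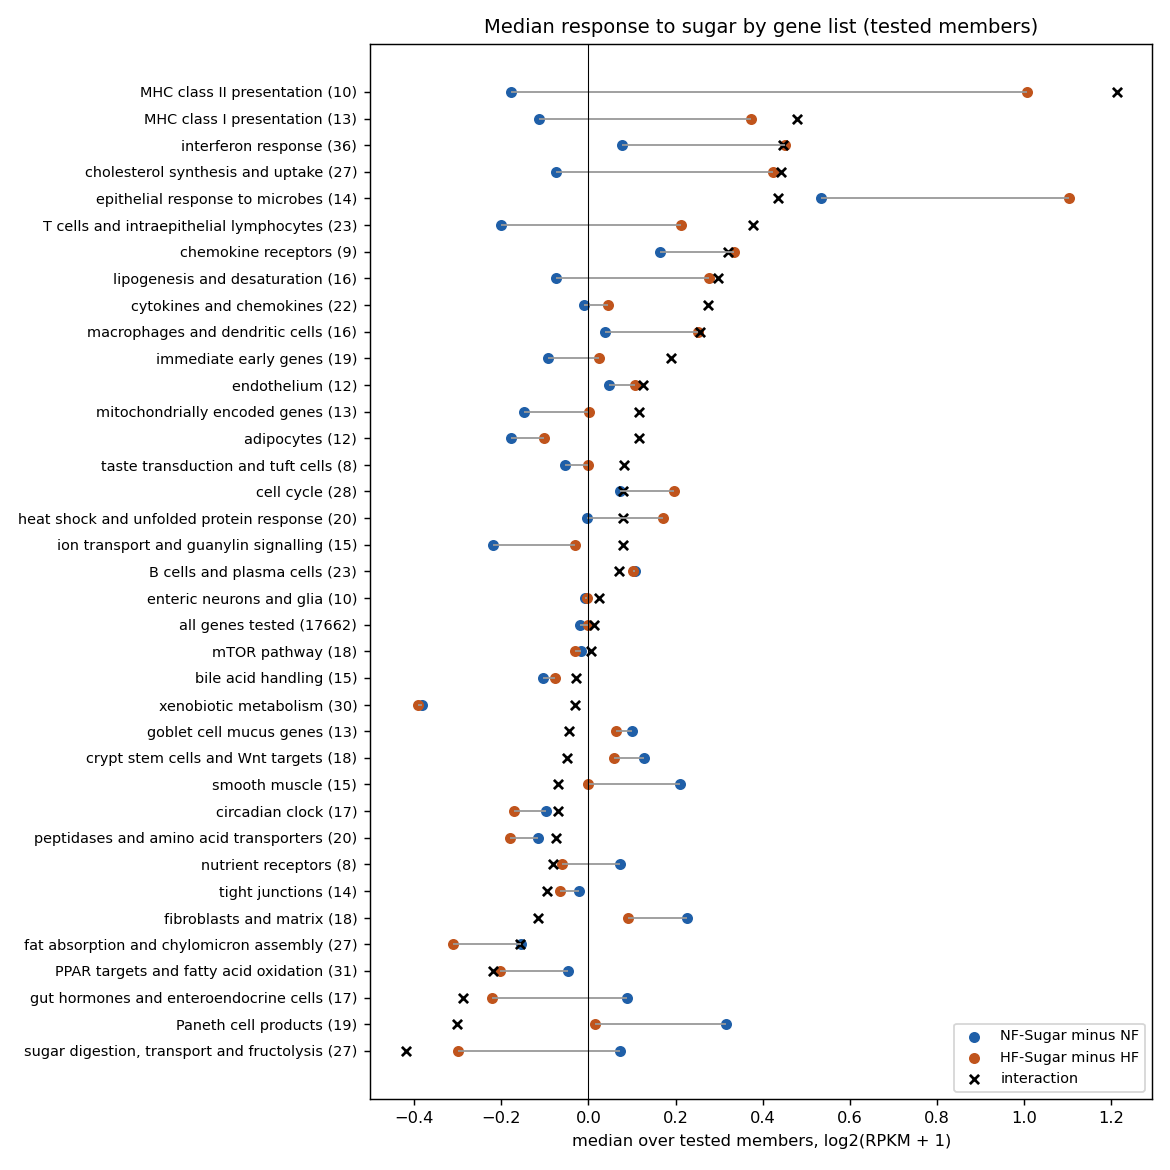
Median over the tested members of each gene list with at least 8 tested genes (number in brackets), on a log2(RPKM + 1) axis. Blue is NF-Sugar minus NF, orange HF-Sugar minus HF, and the cross the median of the interactions, which need not equal the difference of the 2 medians. MHC class II (1.21) and sugar digestion (-0.42) are at the 2 ends, and all genes tested sit at 0.01.

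Genes that crossed, with all sugar libraries on 1 side of water on normal fat and on the other side on high fat, were few, and their order chose them. Nfkbia, the inhibitor of NF-kappaB that NF-kappaB itself induces, measured 66.5, 48.9 and 55.6 in NF, 45.8, 31 and 41.4 in NF-Sugar, 32, 31.8 and 34.4 in HF and 37.9, 38.7 and 42.5 in HF-Sugar (0.80 ± 0.24). Vmp1, a membrane protein of autophagy whose locus holds Mir21a, measured 35, 31.8 and 32.2 in NF, 26.3, 23.6 and 30.1 in NF-Sugar, 24.8, 20.4 and 26.1 in HF and 31.8, 28.9 and 31 in HF-Sugar (0.66 ± 0.20). Both were lower with sugar on normal fat and higher with it on high fat, and so were Prodh, proline dehydrogenase (0.65 ± 0.17), the p53 target Trp53inp1 (0.63 ± 0.20), Rap2c (0.56 ± 0.23), Btg3 (0.54 ± 0.15), Epop (0.54 ± 0.16) and Prr3 (0.53 ± 0.13). The 8 named on the other side, higher with sugar on normal fat and lower on high fat, were Rpusd1 (-0.55 ± 0.15), Tmem206 (-0.54 ± 0.16), Rabep2 (-0.46 ± 0.18), Gtpbp3 (-0.46 ± 0.14), Cxxc1 (-0.42 ± 0.17), Kif12 (-0.40 ± 0.15), Pomt1 (-0.36 ± 0.12) and Pcsk6 (-0.36 ± 0.15).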

How the data were processed

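Ileal RNA from 12 mice was sequenced. The labels give it as total RNA, while the study's methods describe mRNA isolated from total RNA and depleted of ribosomal RNA. The authors aligned reads with STAR in Partek Flow (named with mm10 in the submitters' processing notes), quantified Ensembl transcripts and deposited RPKM values per gene, with no counts. Each of the 12 per-sample files held the same values as the series table. Of 44231 rows, 26 carried bare numbers as names (at most 0.135% of RPKM) and were left out, and 40525 of 44205 genes matched the annotation. Reads recovered from the steps between low values gave 15.3 M to 39 M reads per library, of which 73.1 to 81.2% lay in genes, and a low value was called whole within 0.03 reads and other values within 0.1. The study's own test models counts and was not run on RPKM.

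RPKM was scaled by TMM (trims of 30% and 5%), a pseudocount of 1 was added, and log2 values of genes with at least 0.5 RPKM in at least 3 libraries were fitted with limma 3.58.1 (trend, R 4.3.3) with 1 coefficient per group and 8 residual degrees of freedom. This scale understates changes of low genes. Adjusted p-values are Benjamini-Hochberg over all genes tested, with a threshold of 0.05. Single values were tested by exact permutation, whose null is no response on either diet. The code was tested on simulated data.

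The 39 gene lists and the named genes were chosen with earlier results of these data known. Named genes were those called, the 12 highest and 12 lowest by moderated t (predicted models, pseudogenes and antigen receptor segments passed over), the 2 smallest p of each list, up to 8 crossing genes each way, genes in the study's text, and list members given as examples. Same-numbered libraries correlated between -0.459 and 0.557, so replicate numbers were not taken as pairs. Alternatives were other scalings, a pseudocount of 0.1, no filter or a mean RPKM of at least 5, other variance priors, a replicate block, a covariate for or removal of the 4 libraries that stood apart, limma-voom on recovered reads, removal of 1495 genes with irregular values, the study's thresholds, and each library left out. Some genes of these lists are not reported here by name.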

Additional observations from a re-analysis of the deposited data

How the results depend on the processing

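Over 24 alternatives the interaction called 0 genes, except for 1 gene without HF replicate 1 (Gm26778), a range of 0 to 1 when a library was left out, and between 123 and 1167 genes had an unadjusted p under 0.05 (612 with the covariate for the libraries that stood apart). The response on normal fat called 4 genes with no filter and 0 to 1 with a library left out, the 1 being Igkv12-40 without NF replicate 1 and Gm26778 without HF replicate 1. The response on high fat, 1 gene as reported, called 0 with a pseudocount of 0.1, no filter, a mean RPKM of at least 5, the replicate block, either treatment of the 4 libraries, limma-voom, no irregular genes and the study's thresholds, and 0 to 2 with a library left out. It was 0 without NF 1, 2 or 3, NF-Sugar 2, HF 2 or 3, or any HF-Sugar library, and 2 without NF-Sugar 3 or HF 1. Under the replicate block the interaction and the response on normal fat also called 0 genes, and the block changed no other call. Crossing genes numbered 40, with 76 under no filter, 10 at a mean RPKM of at least 5, 531 without the 4 libraries and 63 to 185 with a library left out. Of 3773 values of 161 named genes, 13 changed sign, in 8 genes. Without the 4 libraries these were Pnpla2 (0.019), Cela1 (0.025), Ctrl (0.13), Trpm5 (0.13) and Ccl5 (-0.10). With a library left out, Trpm5 ran from -0.20 to 0.0064, Lgr5 from -0.21 to 0.0043, Reg3b from -0.16 to 0.92 and Reg3g from -0.11 to 0.92. Fewer libraries or genes enter several of these fits, and otherwise the cause was not tested.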
